A study of Homo sapiens with 6 samples.

Results

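The genes described here encode the Ly6/uPAR domain proteins of a fixed list, LY6D, LY6E, LY6K, PSCA, LYPD1, LYPD3, LYPD6, LYPD6B and PLAUR, together with PLAU, the protease that binds PLAUR. They were found by name in a table of FPKM, in which fragment counts are divided by transcript length and library size, and all 10 of the 10 listed genes were present among 25442 genes. The table covers YAPC, a human pancreatic cancer line that serves as a classical-subtype model, in 6 RNA-seq libraries. Both groups were engineered with a Dox-responsive transactivator (rtTA) and kept in doxycycline (Dox) for 6 days, so Dox itself is shared. YAPC-iGLI2 cells carried pRetroX-Tight-Puro with Flag-tagged human GLI2, a transcription factor of the Hedgehog pathway, and YAPC-iEV cells carried the same vector empty, with 3 libraries of each. GLI2 in this system is driven by a Dox-inducible viral vector in 1 cell line, and nothing in the labels says that replicates came from separate cultures, so p-values measure the spread between these samples, which may be technical.

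Ly6/uPAR proteins share a compact fold of disulfide-bonded loops, the three-finger domain, and most are held on the outer face of the plasma membrane by a glycosylphosphatidylinositol (GPI) anchor. PLAUR, the urokinase receptor, carries several such domains and captures secreted urokinase (PLAU) at the cell surface, where urokinase turns plasminogen into the broad protease plasmin. PLAU has no Ly6 domain of its own and is included as the ligand. The system is best known in carcinomas for matrix breakdown, invasion and signaling through integrins.

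GLI2 was at 0.466, 0.412 and 0.344 FPKM in iEV replicates 1 to 3 and at 94.5, 207 and 195 FPKM in iGLI2 replicates 1 to 3, so each library matched its label and iGLI2 replicate 1 had the lowest value of its group. Library totals ranged from 981344 to 1082687 FPKM in iEV cells and from 803149 to 889559 FPKM in iGLI2 cells, and small RNA genes held 45.4% to 48.4% and 38.9% to 40.4% of them. The depth in reads is unknown, so no counting error is given. The epithelial markers EPCAM and KRT19 were at least 396 FPKM in every library. KRT8 and KRT18 were listed at 0 in all 6, so a listed 0 is not read here as absence. CDH1 was at 51.0 to 56.3 FPKM in iEV and at 64.8 to 72.5 FPKM in iGLI2 libraries. In the test described below, EPCAM and CDH1 were each higher in iGLI2 cells by 0.37 on the log2 scale (limma adjusted p = 0.00709 and 0.0169). KRT19 did not pass (-0.18, limma adjusted p = 0.195). The CDH1 call was lost without replicate 2 or 3 of either group (adjusted p = 0.0610 to 0.0775). The paper's immunoblots showed less E-cadherin, the CDH1 protein, in YAPC cells stably expressing GLI2. Other cell types left little signal. The summed level of 4 leukocyte markers was 3.21 to 3.49 FPKM in iEV and 2.90 to 3.25 FPKM in iGLI2 libraries, nearly all of it CD68, and that of 3 endothelial markers was at most 0.411 FPKM. The sum over 4 fibroblast markers was 1.34 to 1.57 FPKM in iEV and 2.31 to 3.01 FPKM in iGLI2 libraries. That rise was COL1A1, with DCN listed at 0 and COL3A1 at or below 0.0140 FPKM, and its part in the results was not tested.

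The Ly6/uPAR genes did not move in a single direction. LY6D, a surface antigen of stratified epithelia, and PLAU were each lower in iGLI2 cells by more than 2-fold, whereas PLAUR, LYPD6 and LYPD6B were higher. In bulk RNA, fewer cells expressing a gene and less RNA per cell cannot be told apart. LY6E, PSCA and LYPD1 did not pass the test, and LY6K and LYPD3 were too low to enter it. Values were compared as log2(FPKM + 1) with limma across the 12493 genes whose mean over all libraries reached 1 FPKM, with Benjamini-Hochberg adjustment over all of them and a threshold of 0.05. Of the 8 listed genes tested, 5 passed, against 21.9% of all genes tested. The 3 that were higher compare with 10.1% of all genes, and the 2 that were lower with 11.8%. In 6 of the 8 the iEV and iGLI2 values did not overlap, which held for 42% of all genes tested. All iGLI2 values lay above in 3 of them, against 19.2% of all genes, and below in 3, against 22.8%. None of the 8 met both the threshold and a 2-fold increase on this scale, which 2.59% of all genes did. The median log2 fold change of the 8 was -0.05, and that of all genes was -0.01. Without PSCA, whose iGLI2 mean was under 1 FPKM, it was 0.12 over 7 genes, an alternative chosen after the data were seen. Of all calls, 46.0% were higher in iGLI2 cells. With small RNA genes left out and the libraries rescaled this share was 59.3% and the median of all genes was 0.06, and the same 5 listed genes passed in the same directions.

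**Figure D1:**
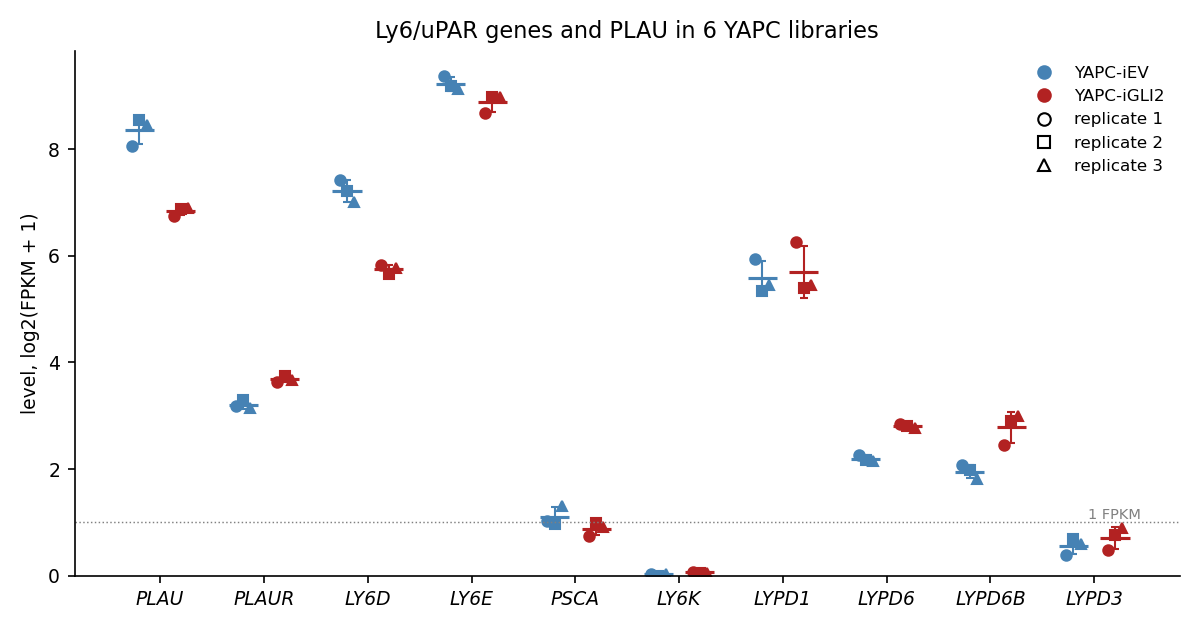
Level of each of the 10 genes, as log2(FPKM + 1), in the 3 YAPC-iEV (blue) and 3 YAPC-iGLI2 (red) libraries, with the group mean and SD and a dotted line at 1 FPKM. PLAU and LY6D sit lower in every iGLI2 library, PLAUR, LYPD6 and LYPD6B sit higher, and replicate 1 (circles) is the highest of both groups in LYPD1.

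FPKM is scaled to length, so levels can be ordered between genes. In iEV cells the order of mean FPKM was LY6E (600), PLAU (329), LY6D (148), LYPD1 (47.7), PLAUR (8.24), LYPD6 (3.57), LYPD6B (2.88), PSCA (1.16), LYPD3 (0.476) and LY6K (0.0159). No pair of neighbours in that order had overlapping ranges over its 3 libraries. The most abundant genes were thus LY6E, PLAU and LY6D, while the receptor PLAUR was far below its ligand. In iGLI2 cells the same genes stood at the ends, with LY6E first (471 FPKM), PLAU next (114 FPKM) and LY6K last (0.0428 FPKM). LYPD1 (52.9 FPKM) and LY6D (52.8 FPKM) then had overlapping ranges, as did LYPD6 (6.00 FPKM) and LYPD6B (5.96 FPKM), and PSCA (0.849 FPKM) and LYPD3 (0.645 FPKM). Among all 25442 genes PLAU went from level rank 259 in iEV cells to 764 in iGLI2 cells, and LY6D from 574 to 1764.

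The ligand and its receptor are described first. PLAU (chr10:75669727-75682535, hg19), which encodes the urokinase-type plasminogen activator, was at 266, 373 and 350 FPKM in iEV replicates 1 to 3 and at 106, 116 and 118 FPKM in iGLI2 replicates 1 to 3. Every iGLI2 library was below every iEV library, and the iGLI2 values lay close together. The means were 329 ± 56.4 and 114 ± 6.51 FPKM (SD, n = 3 each), 2.90-fold lower in iGLI2 cells. On the log2(FPKM + 1) scale the difference was -1.51 (SE 0.14, 95% interval -1.85 to -1.18, limma adjusted p = 0.00133). It was the 134th largest decrease among all genes tested. At least a 2-fold decrease with an adjusted p under the threshold was met by 1.62% of genes, PLAU and LY6D among them. Leaving out single libraries gave differences from -1.66 to -1.42, with adjusted p up to 0.0115. The locus is shared with C10orf55, listed at 0.633, 1.22 and 1.09 FPKM in iEV and 0.240, 0.499 and 0.546 FPKM in iGLI2 libraries. Whether counting used strand is not stated, so reads of the shared stretch cannot be told apart.

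PLAUR (chr19:44150247-44174498) moved the other way. Its values were 8.11, 8.83 and 7.78 FPKM in iEV cells and 11.4, 12.4 and 11.7 FPKM in iGLI2 cells, with no overlap. The mean went from 8.24 ± 0.537 to 11.8 ± 0.490 FPKM (SD, n = 3 each), 1.43-fold higher. The log2 fold change was 0.47 (SE 0.067, 95% interval 0.31 to 0.64, limma adjusted p = 0.00595). It ranged from 0.44 to 0.52 with a library left out, and the adjusted p reached 0.0385.

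Because a ratio within a library does not depend on the scaling between libraries, PLAU was also set against PLAUR directly. There were 32.8, 42.2 and 44.9 FPKM of PLAU for each FPKM of PLAUR in iEV replicates 1 to 3, and 9.29, 9.41 and 10.1 in iGLI2 replicates 1 to 3. The mean ratio was 40.0 ± 6.38 in iEV and 9.62 ± 0.458 in iGLI2 cells (SD, n = 3 each). The groups did not overlap, and the log2 difference was -2.04. The exact two-sided permutation test gave p = 0.1, the smallest p that 3 libraries against 3 allow. Over the 3 ratios computed, this p-value became 0.15 after adjustment.

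**Figure D2:**
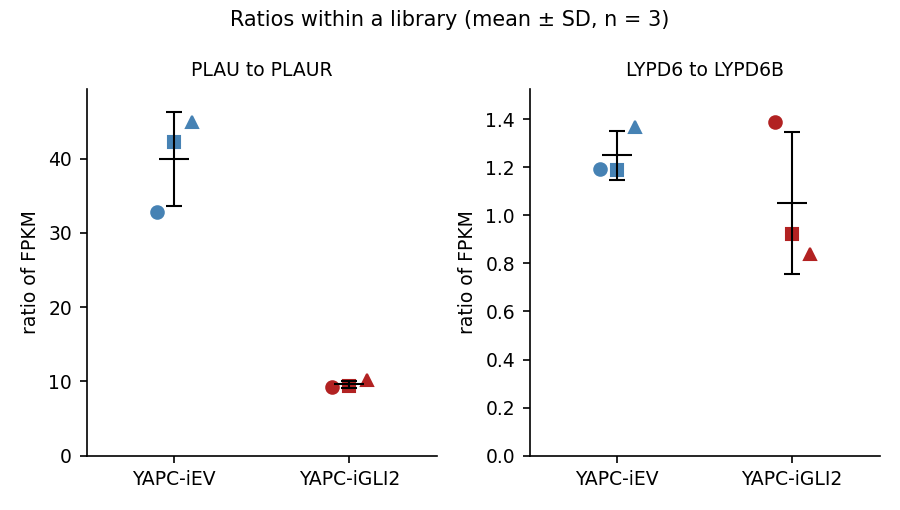
Ratio of FPKM within each library (linear axis from 0) for PLAU to PLAUR and LYPD6 to LYPD6B, with symbols for the replicates and black bars for the mean and SD of 3 libraries. The PLAU to PLAUR ratio lies between 32.8 and 44.9 in iEV and between 9.29 and 10.1 in iGLI2 libraries, and the LYPD6 to LYPD6B ratio overlaps between the groups.

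LY6D, which was lower, and LYPD6B, which was higher, also passed the test, but their promoters are not shown. The promoters of PLAU, which was lower, and of PLAUR and LYPD6, which were higher in the same cells, are given as examples. Each is the stretch of 250 bases before the transcription start site in RefSeq on GRCh37, 5′ to 3′ on the gene's strand, with the motif letters found in it in capitals on either strand. The motifs searched were the GLI site GACCACCCA, the AP-1 site TGAGTCA, the GC box GGGCGG and the TATA box TATAAA.
PLAU promoter, chr10:75670640-75670889, plus strand: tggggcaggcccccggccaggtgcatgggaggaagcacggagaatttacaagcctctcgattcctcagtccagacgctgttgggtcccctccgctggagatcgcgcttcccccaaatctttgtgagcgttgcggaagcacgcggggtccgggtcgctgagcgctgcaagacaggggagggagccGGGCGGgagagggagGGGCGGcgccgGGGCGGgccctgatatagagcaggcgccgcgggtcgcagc
PLAUR promoter, chr19:44174322-44174571, minus strand: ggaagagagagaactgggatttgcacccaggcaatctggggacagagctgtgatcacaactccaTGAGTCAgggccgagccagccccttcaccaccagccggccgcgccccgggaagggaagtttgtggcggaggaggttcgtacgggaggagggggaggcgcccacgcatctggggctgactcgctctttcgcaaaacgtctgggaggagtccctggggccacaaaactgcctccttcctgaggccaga
LYPD6 promoter, chr2:150186851-150187100, plus strand: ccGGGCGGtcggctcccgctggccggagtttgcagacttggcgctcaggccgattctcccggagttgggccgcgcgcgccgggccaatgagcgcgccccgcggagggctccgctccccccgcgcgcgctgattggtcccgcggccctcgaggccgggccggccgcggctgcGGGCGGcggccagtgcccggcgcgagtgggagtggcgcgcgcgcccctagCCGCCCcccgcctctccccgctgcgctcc
The PLAU window held 3 GC boxes, starting at positions -66, -51 and -40 from the start site, and LYPD6 held 3, at -248, -79 and -29. The PLAUR window held no GC box and 1 AP-1 match, at -186. Over all 35093 promoter windows of the same length, 42.6% held a GC box, 4.2% the AP-1 letters, 10.7% the TATA letters and 0.199% the GLI letters. None of the 3 windows held the GLI or TATA letters, which says only that these letters are not in these windows.

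The Ly6 genes of chromosome 8 were measured next. LY6D (chr8:143866298-143868008), a GPI-anchored antigen of keratinocytes and of early B cells, is also part of the basal-like gene signature used in the study. Its values were 169, 148 and 128 FPKM in iEV replicates 1 to 3 and 55.6, 49.3 and 53.5 FPKM in iGLI2 replicates 1 to 3. The groups were widely separated, and the lowest iEV library was well above the highest iGLI2 library. The means were 148 ± 20.8 and 52.8 ± 3.21 FPKM (SD, n = 3 each), 2.81-fold lower in iGLI2 cells. The log2 fold change was -1.47 (SE 0.11, 95% interval -1.75 to -1.18, limma adjusted p = 8.67e-04), the 145th largest decrease among genes tested. Leaving out single libraries gave values from -1.57 to -1.37, with adjusted p up to 0.00856. The paper reports a significant rise of basal-like genes by qRT-PCR in YAPC-iGLI2 cells, after fewer days of Dox. Its text does not name LY6D. The lower LY6D level here goes the other way from that qRT-PCR result, at another time and by another assay. By RNA-seq of YAPC-iGLI2 cells, the paper also names the basal-like gene S100A2 among the most upregulated transcripts. Why LY6D differs in direction was not tested.

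LY6E (chr8:144099902-144103827), an interferon-inducible GPI-anchored protein, was the most abundant of the genes listed. It was at 663, 582 and 555 FPKM in iEV and at 408, 504 and 502 FPKM in iGLI2 libraries. These values did not overlap, but the difference of -0.35 (SE 0.12, 95% interval -0.63 to -0.07) did not pass after adjustment (limma adjusted p = 0.0818). PSCA (chr8:143751726-143764145), prostate stem cell antigen, is also a surface protein of gastric and urothelial epithelium. It was at 1.04, 0.963 and 1.48 FPKM in iEV and at 0.682, 0.992 and 0.871 FPKM in iGLI2 cells. The ranges overlapped, and the log2 fold change was -0.22 (95% interval -0.55 to 0.10, limma adjusted p = 0.293). LY6K (chr8:143781529-143808391), a gene of the testis that is also found in some tumors, stood at 0.0228, 0 and 0.0250 FPKM in iEV and at 0.0514, 0.0374 and 0.0397 FPKM in iGLI2 libraries, and was not tested. Its locus is shared with LOC100288181.

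The LYPD genes came next. LYPD6 (chr2:150186499-150330659) and LYPD6B (chr2:149894981-150071772) are a pair of paralogs whose loci lie 115 kb apart, and their proteins have been linked to nicotinic acetylcholine receptors and, for LYPD6, to WNT signaling. LYPD6 was at 3.80, 3.48 and 3.44 FPKM in iEV and at 6.20, 6.01 and 5.81 FPKM in iGLI2 libraries. The groups did not overlap and had the same spread, 3.57 ± 0.199 against 6.00 ± 0.199 FPKM (SD, n = 3 each), 1.68-fold higher in iGLI2 cells. The log2 fold change was 0.62 (SE 0.064, 95% interval 0.46 to 0.77, limma adjusted p = 0.00207), with a range of 0.59 to 0.65 and adjusted p up to 0.0183 when a library was left out.

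LYPD6B was at 3.19, 2.93 and 2.51 FPKM in iEV and at 4.47, 6.50 and 6.92 FPKM in iGLI2 libraries. All iGLI2 values were above all iEV values, and iGLI2 replicate 1, the library with the least GLI2, was the lowest of its group. In that library PLAUR (11.4 FPKM) was also lowest and LY6D (55.6 FPKM) highest of the group, which are the smaller changes. By contrast LYPD6 (6.20 FPKM) was highest and PLAU (106 FPKM) lowest there, the larger changes. A relation to the GLI2 level was not tested. The LYPD6B mean went from 2.88 ± 0.340 to 5.96 ± 1.31 FPKM (SD, n = 3 each), 2.07-fold higher. The log2 fold change was 0.83 (SE 0.16, 95% interval 0.44 to 1.22, limma adjusted p = 0.0160). This call was lost without iEV replicate 2 (adjusted p = 0.0657), iEV replicate 3 (0.0703), iGLI2 replicate 2 (0.0679) or iGLI2 replicate 3 (0.0580), at log2 fold changes of 0.73 to 0.84. The ratio of LYPD6 to LYPD6B was 1.19, 1.19 and 1.37 in iEV and 1.39, 0.923 and 0.839 in iGLI2 libraries, a log2 difference of -0.28 (exact permutation p = 0.4). This ratio was chosen after the values were seen.

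LYPD1, which binds nicotinic receptors in neurons, was at 60.5, 39.7 and 42.8 FPKM in iEV and at 75.2, 40.8 and 42.8 FPKM in iGLI2 libraries. Replicate 1 was the highest of both groups and the other libraries lay close together. The log2 fold change was 0.12 with a 95% interval of -0.56 to 0.79 (limma adjusted p = 0.797), so a change within that interval was not resolved by this fit. With a replicate block the SE was 0.081 in place of 0.28, and the gene still did not pass (limma adjusted p = 0.328). Without iGLI2 replicate 1 the log2 fold change was -0.16 and without iEV replicate 2 it was -7.28e-06. Its entry spans chr2:133174147-133429070 and is shared with GPR39, whose own value differed by -0.22 on the log2 scale (limma adjusted p = 0.0901). LYPD3 (chr19:43964946-43969831), also called C4.4A, is a structural relative of PLAUR. It was at 0.304, 0.618 and 0.506 FPKM in iEV and at 0.395, 0.694 and 0.847 FPKM in iGLI2 cells. These ranges overlapped and the gene was under the filter. Just above the filter was PSCA, with a mean over all libraries of 1.01 FPKM.

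**Figure D3:**
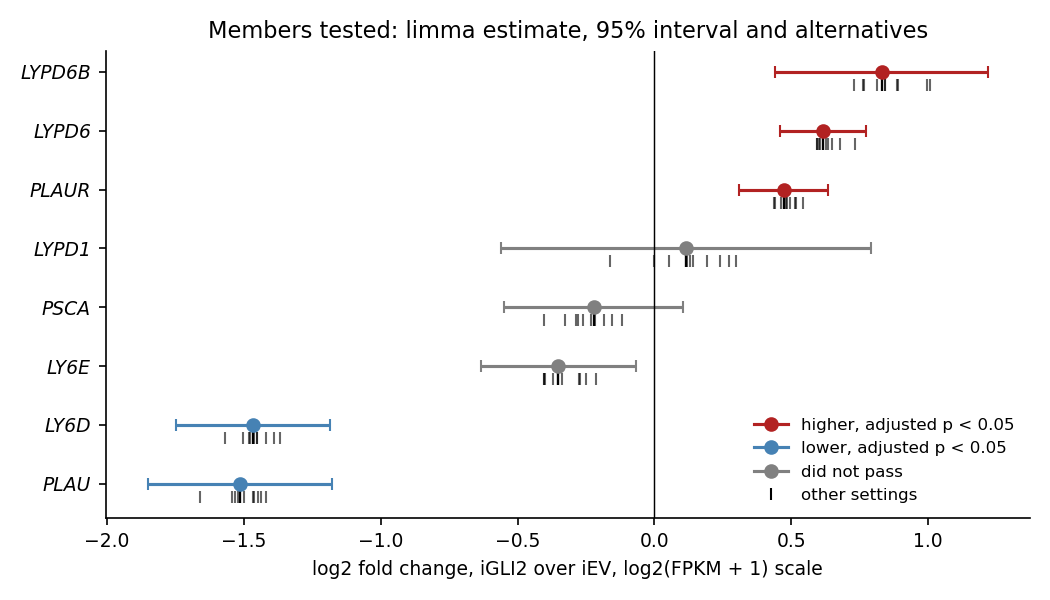
Log2 fold change of iGLI2 over iEV for the 8 genes tested, with the 95% interval from limma (points and bars) and the values under the other settings (black ticks). PLAU and LY6D lie near -1.5, LYPD6B, LYPD6 and PLAUR lie above 0 under every setting shown, and the ticks of LYPD1 fall on both sides of 0.

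Genomic position was compared with direction. LY6D, LY6E, LY6K and PSCA lie in the Ly6 cluster of chromosome 8, with gaps between neighbours of 17.4 kb from PSCA to LY6K and 232 kb from LY6D to LY6E. Of the 9 other genes tested within 250 kb of any of them, 1 was higher and 1 was lower, against 10.1% and 11.8% of all genes tested. LYNX1, a Ly6 gene that dampens nicotinic receptors, lies 7.03 kb from LY6D and was lower by a smaller amount, -0.36 on the log2 scale (limma adjusted p = 0.0193). ARC, 170 kb from LY6D on the same side as LYNX1, was higher (1.60, limma adjusted p = 0.00970), from at most 0.293 FPKM in iEV to at most 3.55 FPKM in iGLI2 libraries, and entered the test through its iGLI2 level. Over all the loci, 34 other genes were tested, of which 3 were higher and 3 were lower, against the same shares of all genes. The largest was KCNN4, a calcium-activated potassium channel 96.2 kb from PLAUR, at 1.19, 1.41 and 1.13 FPKM in iEV and 11.1, 10.6 and 10.3 FPKM in iGLI2 cells (log2 fold change 2.38, limma adjusted p = 1.11e-04). Near PLAU, CAMK2G (-0.55, limma adjusted p = 0.0101) and ADK (-0.38, limma adjusted p = 0.0117) were lower and ZSWIM8 was higher (0.37, limma adjusted p = 0.0221). These were lost without iEV replicate 2 or 3 (adjusted p = 0.0502 to 0.0576 for CAMK2G and ADK), and ZSWIM8 also without iGLI2 replicate 2 or 3 (0.0848 to 0.0960).

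**Figure D4:**
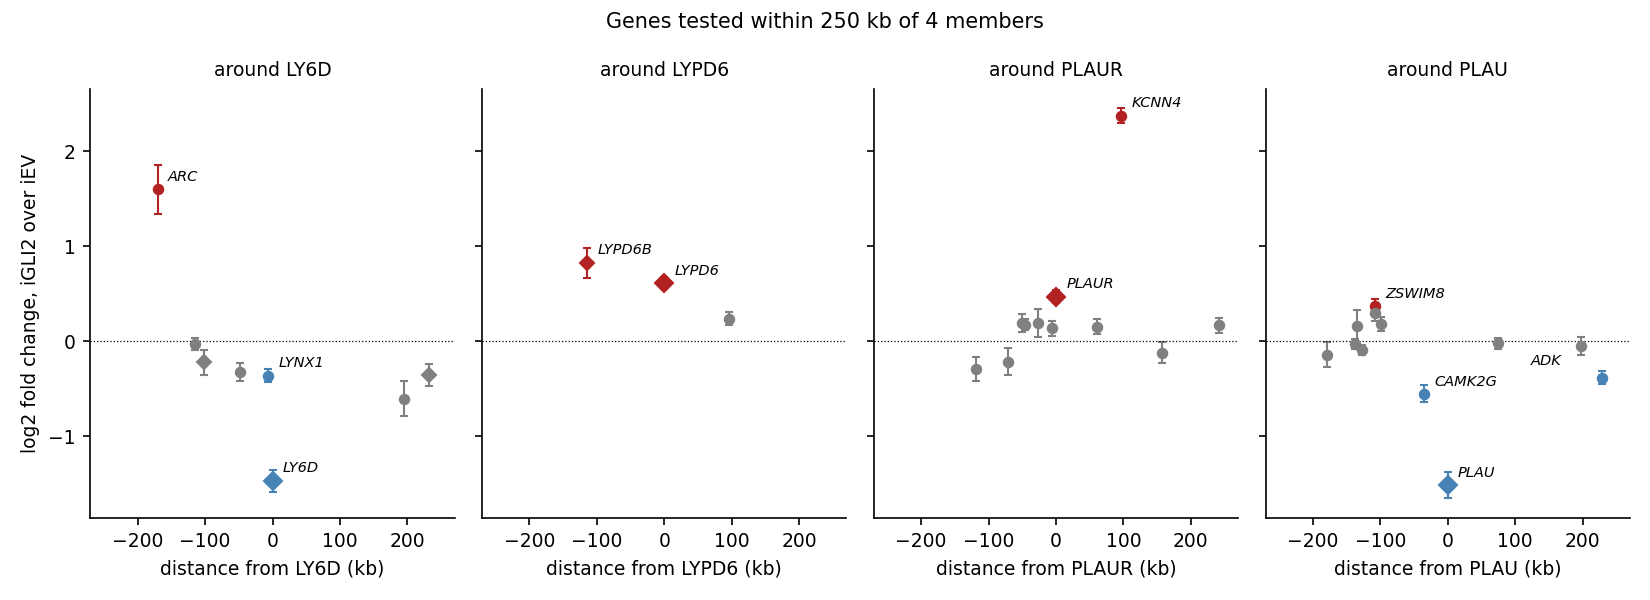
Log2 fold change (points) and SE (bars) of each gene tested within 250 kb of LY6D, LYPD6, PLAUR or PLAU, against the gap to that gene in kb, with listed genes as diamonds and genes past the threshold in color. PLAU and LY6D are the lowest points of their panels, most neighbours are grey, and KCNN4 (2.38) and ARC (1.60) stand above the rest.

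The other genes of plasminogen activation were taken from lists written from general knowledge. Counts that passed in these and the later lists stand beside 10.1% higher and 11.8% lower over all genes tested, 21.9% together. Of 7 other proteases and activators, 5 were tested, 1 was lower and 1 was higher, with a median log2 fold change of -0.33 against -0.01 for all genes. PLAT, the tissue-type activator, was lower, from 49.8 ± 4.74 to 22.8 ± 1.14 FPKM (SD, n = 3 each; log2 fold change -1.09, limma adjusted p = 9.03e-04). MMP14, a membrane-bound metalloprotease, was higher, from 20.0 ± 1.32 to 27.5 ± 1.85 FPKM (SD, n = 3 each; 0.44, limma adjusted p = 0.0133). Plasminogen itself (PLG) was listed at 0 in 4 libraries and at most at 0.0162 FPKM in the others, under the filter. PLAU and PLAT, the main activators of plasminogen, were thus both lower. The MMP14 call was lost without replicate 2 of either group or iGLI2 replicate 3 (adjusted p = 0.0536 to 0.0605).

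Of 5 inhibitors, 4 were tested and 2 were higher. SERPINE2, protease nexin-1, went from 2.03 ± 0.288 to 7.11 ± 0.916 FPKM (SD, n = 3 each; log2 fold change 1.42, limma adjusted p = 9.68e-04). SERPINA5, the protein C inhibitor, was at 16.8, 24.7 and 27.1 FPKM in iEV and at 44.3, 76.9 and 82.5 FPKM in iGLI2 libraries (1.51, limma adjusted p = 0.0156), with iGLI2 replicate 1 the lowest of its group. That call was lost without replicate 2 of either group or iGLI2 replicate 3 (adjusted p = 0.0574 to 0.0655). SERPINB2 was listed at 0 in all 6.

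Among 16 partners and clearance receptors of PLAUR, 11 were tested, with 6 higher and 1 lower and a median log2 fold change of 1.00. LRP1 and MRC2 were under 1 FPKM in every iEV library and entered the test through their iGLI2 level. Over the 9 other genes tested, 4 were higher and 1 was lower, with a median of 0.07, an alternative chosen after the data were seen. Among the integrin subunits, ITGB1 was at 273, 265 and 270 FPKM in iEV and at 578, 531 and 514 FPKM in iGLI2 cells (log2 fold change 1.00, limma adjusted p = 5.54e-04). ITGA3, which pairs with it as the laminin receptor α3β1, was at 117, 133 and 128 FPKM in iEV and at 213, 323 and 328 FPKM in iGLI2 cells (1.16, limma adjusted p = 0.00814). SRPX2, a secreted ligand of PLAUR, went from 4.66 ± 0.976 to 11.6 ± 2.35 FPKM (SD, n = 3 each; 1.15, limma adjusted p = 0.0103). ITGB6 was the subunit that was lower, from 26.2 ± 1.92 to 18.0 ± 1.48 FPKM (SD, n = 3 each; -0.52, limma adjusted p = 0.0105). The other 3 that were higher, named after their values were seen, were ITGA5, LRP1 and MRC2, the last a collagen receptor at 2.68, 9.75 and 8.48 FPKM in iGLI2 libraries. ITGB3, just under the filter, was at 0.112 to 0.226 FPKM in iEV and at 1.16 to 1.90 FPKM in iGLI2 libraries. EGFR, ITGAV, ITGB5 and IGF2R did not pass. With a library left out, 3 to 6 of the list were higher. Calls were lost for ITGB6 without iEV replicate 2 or 3 or iGLI2 replicate 2 (adjusted p = 0.0513 to 0.0527) and for MRC2 without iEV replicate 2 or 3 or iGLI2 replicate 3 (0.0516 to 0.0595). Those of ITGA5 (0.0532 to 0.0745) and LRP1 (0.0944 to 0.108) were lost without any library except iGLI2 replicate 1. All 4 plasminogen receptors were tested, and ANXA2 (740 ± 10.5 to 565 ± 0.932 FPKM) and ENO1 (726 ± 18.4 to 544 ± 15.6 FPKM; SD, n = 3 each) were lower, by log2 differences of -0.39 and -0.42 (limma adjusted p = 0.00509 and 0.00557). Under quantile normalization these differences were -0.23 and -0.25. S100A10 (0.12, limma adjusted p = 0.171) and PLGRKT (-0.57, limma adjusted p = 0.0560) did not pass.

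**Figure D5:**
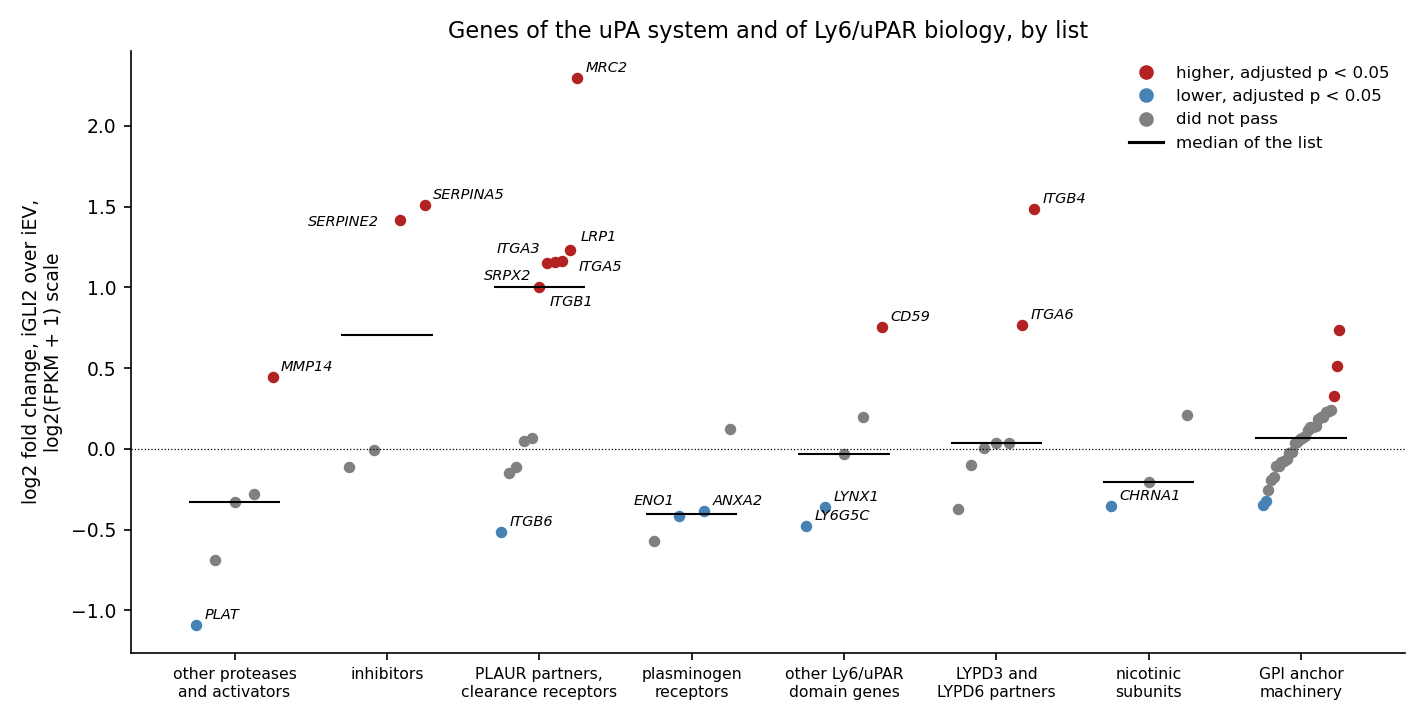
Log2 fold change of iGLI2 over iEV for each gene tested in 8 lists (points) with the list's median (black line), colored where the adjusted p from limma was under 0.05. The median of the PLAUR partners (1.00) includes LRP1 and MRC2 and is 0.07 without them, PLAT is the lowest point, and most genes of the GPI anchor machinery lie near 0.

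Of 24 other Ly6/uPAR domain genes, 23 were in the table and 5 were tested, with 1 higher and 2 lower. CD59, the GPI-anchored inhibitor of the complement membrane attack complex, was higher, from 44.5 ± 0.573 to 75.7 ± 4.31 FPKM (SD, n = 3 each; log2 fold change 0.75, limma adjusted p = 0.00101). Besides LYNX1, LY6G5C was lower (-0.48, limma adjusted p = 0.0284), which was named after its values were seen. LY6H and LY6G5B did not pass, and 4 of the list were listed at 0 in all libraries. Most of that list was under 1 FPKM. The LYNX1 call was lost with small RNA genes left out (adjusted p = 0.0566) and without replicate 2 or 3 of either group (0.0645 to 0.0755). That of LY6G5C was lost without any library except iGLI2 replicate 1 (0.0623 to 0.104).

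Partners of LYPD3 and LYPD6 were measured because these receptors act through other surface proteins. All 7 were tested and 2 were higher, with a median log2 fold change of 0.04. The 2 made up 28.6% of them, against 21.9% of all genes tested. ITGB4 was at 47.9, 47.1 and 45.4 FPKM in iEV and at 102, 151 and 152 FPKM in iGLI2 cells (log2 fold change 1.48, limma adjusted p = 0.00258). ITGA6, its partner subunit, went from 98.6 ± 7.17 to 168 ± 6.23 FPKM (SD, n = 3 each; 0.76, limma adjusted p = 0.00160). AGR2, a secreted ligand of LYPD3, was at 826 ± 43.6 and 847 ± 52.6 FPKM (SD, n = 3 each; 0.04, 95% interval -0.15 to 0.22, limma adjusted p = 0.767). Of 16 nicotinic receptor subunits, 3 were tested and CHRNA1 was lower (-0.36, limma adjusted p = 0.0461), named after its values were seen. That call was lost without any library except iGLI2 replicate 1 (adjusted p = 0.0890 to 0.140) and under 5 other settings, upper quartile and quantile scaling among them. CHRNA5 and CHRNB1 did not pass, and 13 subunits were under the filter.

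Of 33 genes for synthesis, attachment, remodelling and release of the GPI anchor, 30 were tested, 3 were higher and 2 were lower, with a median log2 fold change of 0.07. Those that passed made up 16.7% of the genes tested, against 21.9% of all genes. PIGP, a subunit of the enzyme of the first synthesis step, was higher, from 64.0 ± 2.23 to 108 ± 6.51 FPKM (SD, n = 3 each; 0.74, limma adjusted p = 0.00138). PIGF (0.33, limma adjusted p = 0.0293) was higher by less, TMEM8A (-0.33, limma adjusted p = 0.0201) and PGAP2 (-0.35, limma adjusted p = 0.0347) were lower, and PGAP1 was higher (0.51, limma adjusted p = 0.0285; named after its values were seen). The other 25 did not pass. With a library left out, 1 to 5 were higher and 0 to 2 lower, and PIGP held throughout. The calls of PIGF, PGAP1 and PGAP2 were each lost without 5 of the 6 libraries (adjusted p = 0.0519 to 0.129) and that of TMEM8A without iEV replicate 3, iGLI2 replicate 2 or iGLI2 replicate 3 (0.0595 to 0.0865). Those of TMEM8A with small RNA genes left out (0.0741), PGAP1 under quantile normalization (0.0598) and PIGF with a term for the sample code digit (0.0504) were lost as well.

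PLAU had the largest absolute change of the genes listed with all libraries (-1.51 against -1.47 for LY6D), although LY6D was ahead under quantile normalization and without iEV replicate 2, iEV replicate 3 or iGLI2 replicate 1. For PLAU, the genes with the most similar pattern were sought by Pearson's correlation of log2(FPKM + 1) over the 6 libraries, which share the group difference. The 5 highest were TMEM139 (r = 0.9991), HLA-DPA1 (0.9991), GMDS (0.999), AJUBA (0.999) and FLJ22447 (0.9985). A correlation of at least 0.99 was shared by 104 of the 12493 genes. AJUBA, a LIM domain adaptor of cell junctions, was at 56.6, 69.4 and 69.0 FPKM in iEV and at 31.4, 32.0 and 33.0 FPKM in iGLI2 libraries. As for PLAU, its lowest iEV value was in replicate 1.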

How the data were processed

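RNA from the 6 libraries was prepared with an Illumina TruSeq kit. The authors trimmed reads with Trimmomatic and aligned them to hg19 with TopHat2, and the submitters' processing notes name Cuffdiff 2.1.1. The gene annotation, the scaling between libraries and the handling of reads with several matches are not given in the sources used here. The deposited table names no unit, and its values were read as FPKM from their form and totals. Of 27024 entries, 1252 outside the primary chromosomes and 330 with a repeated name were left out.

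limma 3.58.1 (R 4.3.3) was run on log2(FPKM + 1) with a single term for condition, a trend on intensity and two-sided p-values adjusted by Benjamini-Hochberg. Adding 1 understates the fold change of low genes. Ratios within a library were compared with exact permutation tests, and 1 of the 3 ratios computed is not reported here. Genes named by rule beside the 10 listed were GLI2, up to 4 genes per list past the threshold with a mean of at least 5 FPKM in either group, genes past the threshold within 250 kb, and the 5 genes most correlated with PLAU. Others are named outside that rule, as cell type markers, as context (such as PLG, AGR2, EGFR, ITGB3 and SERPINB2) or, where marked, after their values were seen. The lists and the genes described were chosen with earlier results of these data known. Starts of loci were raised by 1 to match a genome browser. Promoters came from RefSeq on GRCh37. Tables and plots were made with Python 3.11.15, numpy 2.4.6 and matplotlib 3.10.9.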

Additional observations from a re-analysis of the deposited data

How the results depend on the processing

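The 5 calls among the listed genes kept their directions under upper quartile scaling, quantile normalization, rescaling without small RNA genes, a pseudocount of 0.1, no filter, no trend and robust moderation. With a mean of at least 5 FPKM, 3 passed, since LYPD6 and LYPD6B did not reach that mean, and with a 2-fold requirement 2 passed. With a library left out, 4 to 5 passed and LYPD6B was the call lost, while over all genes between 1223 and 3753 passed in place of 2742, and 527 with the 2-fold requirement. The fold change of LYPD1, 0.12 with all libraries, ran from -0.16 (without iGLI2 replicate 1) to 0.30 with a library left out and was -7.28e-06 without iEV replicate 2. Of 125 values for the 8 genes tested, 119 kept direction and side of the threshold. Of 303 for 19 other genes named by rule from the lists, 275 did and 28 lost the call. Those 28 belonged to PIGF, PGAP2, TMEM8A, CDH1, MMP14, ITGB6 and SERPINA5. Other called genes named in the text were not in this count. Among those, CHRNA1, LRP1, PGAP1, LYNX1, LY6G5C, ITGA5, MRC2, ZSWIM8, CAMK2G and ADK also lost the call in at least 1 setting. With the replicate block, 3928 genes and 5 listed genes passed. Same-numbered libraries correlated at 0.204, 0.0919 and 0.0276 in their deviations from the group means, and unlike-numbered ones at -0.193 to 0.117. The numbers were not taken to pair them, and whether they do is unknown. With the sample code digit as a term 2084 genes passed. The ratios kept their direction with 1 added to each value. Depth is unknown, so values under 1 FPKM, as for LY6K and LYPD3, carry no detection limit.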
